A study of Mus musculus with 43 samples.

Results

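The genes described here are Col26a1, 4933404O12Rik, Gigyf1, Tfr2 and Zfp157, 5 of the 56980 genes in the count table. They were chosen by position and by these data, since each lies on mouse chromosome 5 within 5 Mb of Cux1 and differed between Cux1 KO and WT libraries at E19. RNA was sequenced in bulk from GFP+ layer 2/3 excitatory neurons of the somatosensory cortex, which had been labelled by in utero electroporation of their progenitors and sorted by FACS. The WT mice were of strain C57BL/6JRccHsd, and the mutant lines, made elsewhere or by gene editing, were kept on that background. The 43 libraries fall into 13 groups of genotype, stage and sex. At E19 there were 4 WT, 4 Cux1 KO and 4 Cux2 KO libraries of each sex. At P4 there were 3 WT and 3 Cux2 KO libraries of each sex and 2 Cux1 KO libraries, both male, and at P7 there were 2 WT female and 3 WT male libraries.

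The Cux1 KO libraries rest on different alleles at each stage. Those of E19 came from embryos homozygous for a germline allele, Cux1 ΔC/ΔC, that lacks the C-terminal part of the protein and is kept as heterozygotes on the C57BL/6JRccHsd background. Those of P4 came from heterozygous Cux1 f/Δ23 mice whose floxed allele was recombined only in the electroporated cells, by a CRE plasmid given together with a CRE-dependent GFP plasmid, so that the sorted neurons were Cux1 Δ23/Δ23. Cux2 KO mice carried a germline null allele at both stages, and the WT and Cux2 KO mice received the GFP plasmid without CRE. The E19 libraries were sequenced in a first round and the P4 and P7 libraries in a second, so that for Cux1 KO the allele, the age, the CRE plasmid and the sequencing round cannot be told apart. The labels do not say whether the libraries of a group came from separate animals, and p-values measure only the spread between these libraries.

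CUX1 and CUX2 are homeodomain transcription factors of the CUT class and mark the neurons of the upper cortical layers, in which they are known for roles in dendrite, spine and axon development. A gene that is neighbour to a germline mutation is inherited together with it. At E19 the position beside the mutated gene and the loss of CUX1 itself cannot be told apart. The same holds at P4, where the mice carried engineered Cux1 alleles on both chromosomes, of which Δ23 was already present in the germline. Among the 5 genes, Col26a1 encodes a secreted collagen with an EMI domain, and 4933404O12Rik is a long noncoding RNA. Gigyf1 encodes a GYF-domain protein that works with the cap-binding protein 4EHP in repressing translation. Tfr2 encodes transferrin receptor 2, an iron sensor of hepatocytes and erythroid precursors, and Zfp157 encodes a zinc finger protein of the KRAB family.

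All 5 genes lie on the same side of Cux1, at higher coordinates, in GRCm39. Cux1 itself (ENSMUSG00000029705) spans chr5:136276755-136596408 on the minus strand. Col26a1 (ENSMUSG00000004415, chr5:136770613-136912063, minus strand) is 174 kb from it. 4933404O12Rik (ENSMUSG00000097908, chr5:136944735-136965968, plus strand) starts 32.7 kb beyond Col26a1 and is 348 kb from Cux1. Gigyf1 (ENSMUSG00000029714, chr5:137516810-137526197, plus strand) and Tfr2 (ENSMUSG00000029716, chr5:137568087-137586343, plus strand) are 0.920 Mb and 0.972 Mb away and 41.9 kb apart. Zfp157 (ENSMUSG00000036898, chr5:138439721-138461953, plus strand) is the farthest, at 1.84 Mb. Cux2 lies on the same chromosome, 14.1 Mb from Cux1 on its other side. Gigyf1 shares 656 exonic bases, 11.9% of its own, with Gnb2 on the opposite strand, and the strand setting of the counting is not stated, so reads in that overlap may be assigned to neither gene or to the wrong one.

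The 250 bases before the canonical start site are shown for the genes that were called in at least 1 sex at E19, because CUT-class proteins bind ATCGAT-like letters and were first described as CCAAT displacement factors. Capitals mark matches on either strand to ATCGAT, to the related letters ATCAAT and to the CCAAT box, and none of these motifs contains another. The sequences were read 5′ to 3′ in the direction of transcription from GRCm39, at chr5:136912064-136912313 (minus strand) for Col26a1, chr5:136944485-136944734 (plus strand) for 4933404O12Rik and chr5:138439480-138439729 (plus strand) for Zfp157.
Col26a1: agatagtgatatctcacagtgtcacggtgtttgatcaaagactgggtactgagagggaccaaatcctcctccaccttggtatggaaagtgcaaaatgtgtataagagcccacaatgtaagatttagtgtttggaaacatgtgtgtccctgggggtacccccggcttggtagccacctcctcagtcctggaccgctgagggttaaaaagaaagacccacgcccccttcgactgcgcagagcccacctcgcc
4933404O12Rik: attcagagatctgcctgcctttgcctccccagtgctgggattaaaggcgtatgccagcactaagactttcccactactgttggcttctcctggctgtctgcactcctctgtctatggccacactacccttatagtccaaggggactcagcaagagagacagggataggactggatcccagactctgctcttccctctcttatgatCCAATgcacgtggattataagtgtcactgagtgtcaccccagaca
Zfp157: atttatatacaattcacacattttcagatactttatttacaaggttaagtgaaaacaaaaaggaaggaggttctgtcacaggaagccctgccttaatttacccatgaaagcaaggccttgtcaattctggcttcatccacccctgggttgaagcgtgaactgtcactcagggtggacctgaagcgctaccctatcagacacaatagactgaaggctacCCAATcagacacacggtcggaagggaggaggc
4933404O12Rik and Zfp157 each held 1 CCAAT, 45 and 32 bases before the start site, and neither ATCGAT nor ATCAAT was found before any of the 5 genes. The windows of Col26a1, Tfr2 and Gigyf1 held none of the 3 motifs. Of 78284 promoters of the same length, 33% held CCAAT, 8.74% ATCAAT and 0.834% ATCGAT.

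The 43 libraries held between 13321095 and 60559585 counts, with at most 20715732 at E19 and at least 15312029 later. The Cux1 KO P4 libraries stood apart, with 17049 and 19115 genes counted at least once against 20844 to 23736 in the other P4 male libraries. Markers of upper-layer neurons were clearly present at E19, where the 10 markers together lay between 3576 and 5864 CPM (counts scaled to library size). They were low later: the sum of the same 10 markers was 809 to 1917 CPM at P4 and 439 to 621 CPM at P7, and Slc17a7 was at 3 counts or fewer in 6 of 14 P4 libraries. The 7 markers of astrocytes and radial glia moved the other way, from 1480 to 2415 CPM at E19 to 2659 to 7026 CPM at P4 and 7088 to 10976 CPM at P7. In bulk samples, fewer cells of a type and less RNA per cell cannot be told apart.

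The gene-level counts of Cux1 do not check either deletion, since both alleles remove only part of the gene. Cux1 was at 289 to 350 CPM in Cux1 KO and 346 to 506 CPM in WT females at E19. In males the ranges were 310 to 378 and 312 to 468 CPM. At P4 the Cux1 KO libraries had 83.3 and 168 CPM and the WT males 88.1, 157 and 99.6 CPM. Likewise, Cux2 RNA was still counted in Cux2 KO neurons, at 268 to 417 CPM at E19 over both sexes, against 332 to 517 CPM in WT. At P4 it was at 29.6 to 60.5 CPM in Cux2 KO and 28.1 to 46.5 CPM in WT. In Cux1 KO P4 males Cux2 was at 80.4 and 96.6 CPM, against 31.4 to 46.5 CPM in WT males. Cux1 and Cux2 are both among the upper-layer markers summed in this report.

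The genes differ widely in level. Per kb of exon, Gigyf1 was the most abundant in WT neurons at E19, with mean values of 30.3 CPM per kb in females and 25.3 in males, followed by Zfp157 with 8.44 and 7.39. 4933404O12Rik stood at 1.31 and 1.4 CPM per kb. Tfr2, at 0.447 and 0.435, and Col26a1, at 0.264 and 0.347, were the lowest, and the ranges of their libraries overlapped. The plot of levels by library shows CPM at each stage. Per kb of exon, the mean of Col26a1 at P4 was above that of Tfr2, with overlapping libraries. It was 1.00 against 0.393 CPM per kb in WT males and 0.486 against 0.271 in WT females. The means of 4933404O12Rik were higher, at 1.14 in males and 1.43 in females.

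**Figure D1:**
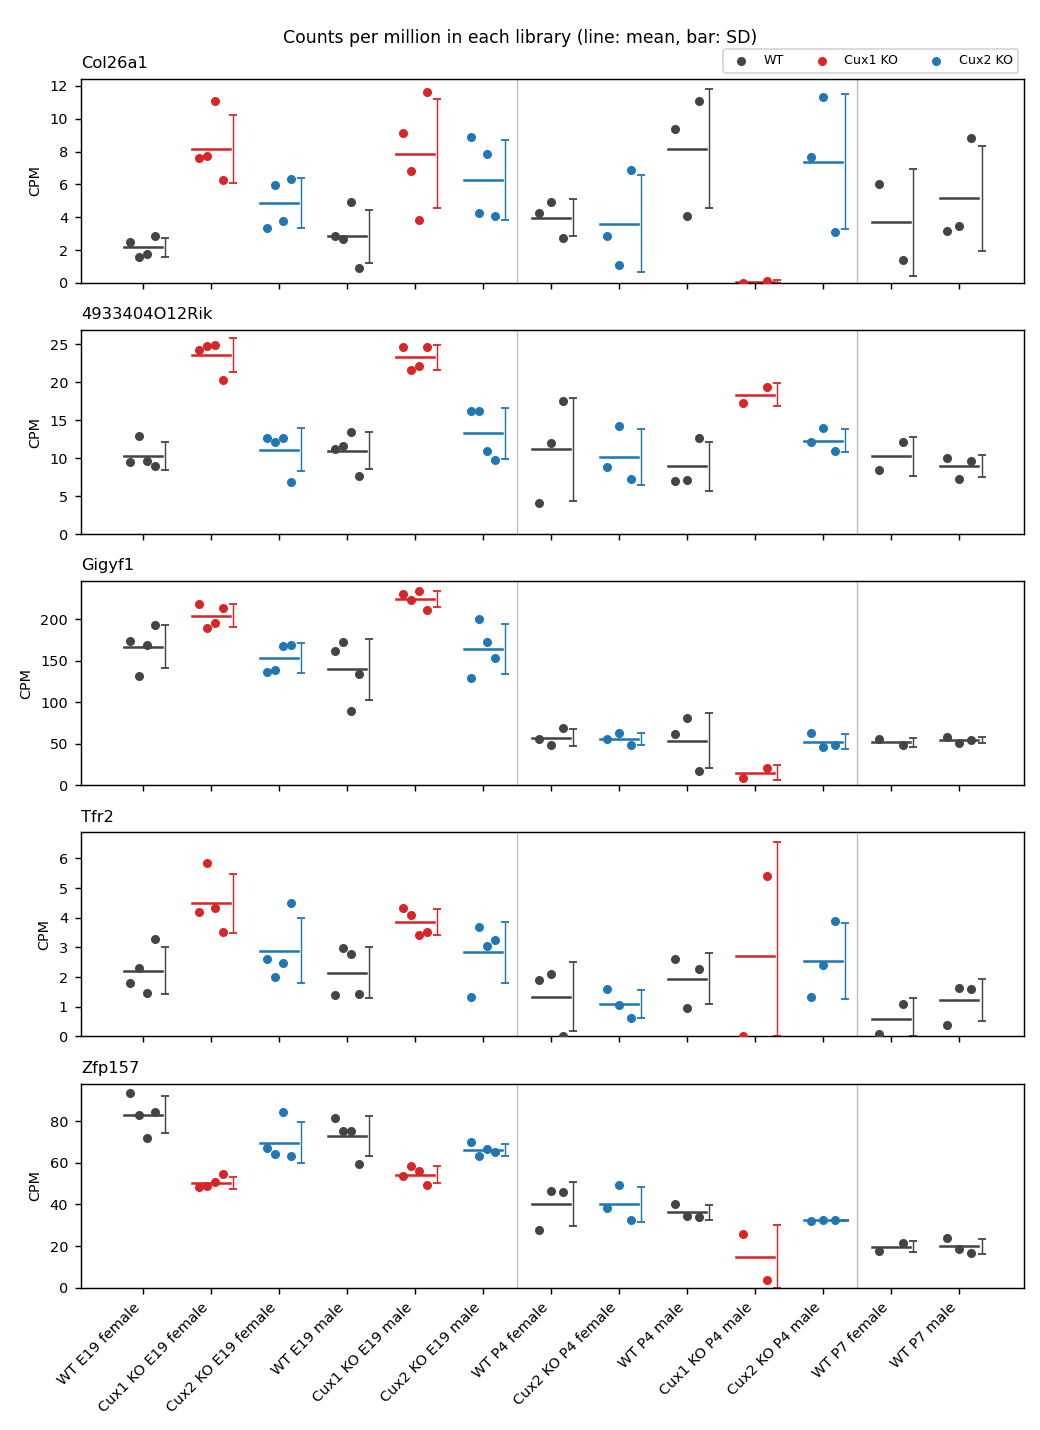
CPM (scaled counts, linear axes from 0) of the 5 genes in every library, by group. Points are libraries, lines group means and bars SDs (not drawn below 0). At E19 all 8 Cux1 KO libraries of 4933404O12Rik lie above every WT and Cux2 KO library, whereas at P4 Col26a1 is almost absent in the 2 Cux1 KO libraries.

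The germline Cux1 allele at E19 is the contrast that chose the genes, so its values are given as a description. Col26a1, the nearest of the 5 to Cux1, had 2.46, 1.55, 1.78 and 2.85 CPM in the WT females and 7.60, 7.73, 11.1 and 6.27 CPM in the Cux1 KO females. In males the WT libraries had 2.86, 2.67, 4.90 and 0.930 CPM and the Cux1 KO libraries 9.14, 6.81, 3.85 and 11.6 CPM. The female groups were fully separate, whereas the lowest Cux1 KO male lay below the highest WT male. The log2 fold change (log2FC) was 1.92 (SE 0.26) in females and 1.42 (SE 0.42) in males.

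The noncoding RNA 4933404O12Rik had 9.42, 12.9, 9.54 and 8.97 CPM in WT females against 24.2, 24.8, 24.9 and 20.3 CPM in Cux1 KO females. WT males had 11.2, 11.6, 13.4 and 7.66 CPM and Cux1 KO males 24.6, 21.6, 22.0 and 24.7 CPM. Neither sex showed any overlap, and the log2FC was 1.21 (SE 0.15) in females and 1.05 (SE 0.16) in males.

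Zfp157 was the only one of the 5 that was lower in the germline mutant. WT females had 93.3, 83.0, 71.8 and 84.2 CPM and Cux1 KO females 48.1, 48.6, 50.5 and 54.5 CPM, without overlap (log2FC -0.72, SE 0.09). WT males had 81.6, 75.0, 75.1 and 59.2 CPM and Cux1 KO males 53.5, 58.5, 56.0 and 49.4 CPM, where the groups were narrowly separated (log2FC -0.45, SE 0.11).

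The iron sensor gene Tfr2 was low in all libraries. It had 1.80, 2.32, 1.46 and 3.28 CPM in WT females and 4.19, 5.86, 4.34 and 3.54 CPM in Cux1 KO females, and 1.399, 2.98, 2.79 and 1.43 CPM in WT males against 4.31, 4.11, 3.42 and 3.52 CPM in Cux1 KO males. The groups did not overlap in either sex (log2FC 1.02, SE 0.29, in females and 0.81, SE 0.31, in males). The translational repressor gene Gigyf1 had 174, 132, 169 and 193 CPM in WT females and 218, 189, 195 and 213 CPM in Cux1 KO females, with overlap, and 162, 172, 89.8 and 134 CPM in WT males against 230, 223, 234 and 211 CPM in Cux1 KO males, without. Its log2FC was 0.29 (SE 0.11) in females and 0.65 (SE 0.16) in males.

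A gene was called at E19 where edgeR's quasi-likelihood test gave an adjusted p under 0.05 and the absolute log2FC was over 0.5. By this rule, 3 of the 5 genes were called in females (Col26a1, 4933404O12Rik and Zfp157), where 0.0576% of all genes tested were called, and 1 in males (4933404O12Rik), where 0.0979% were. Since this contrast chose the genes, nothing is read from these shares, nor from the 4 of 5 genes whose libraries did not overlap in each sex, beside 3.36% of all genes in females and 6.43% in males. Tfr2 and Gigyf1 were not called in either sex. These calls rest on single libraries: without Cux1 KO E19 female replicate 3 none of the 5 was called in females, 1 was without Cux1 KO replicate 1 or WT replicate 2, and in males none was called in 7 of the 8 fits that left out 1 library, the exception being WT replicate 4. With both sexes in 1 fit and sex as a covariate, the log2FC was 1.67 (SE 0.26) for Col26a1, 1.13 (SE 0.11) for 4933404O12Rik, -0.58 (SE 0.07) for Zfp157, 0.92 (SE 0.21) for Tfr2 and 0.47 (SE 0.11) for Gigyf1, and the first 3 were called. Just outside the rule in that fit was Plod3, a collagen lysyl hydroxylase gene 0.419 Mb from Cux1, whose log2FC of 0.43 (SE 0.06) was below the fold threshold. Plod3 was at 102 CPM ± 5.59 in WT and 130 CPM ± 7.33 in Cux1 KO females, and at 95.05 CPM ± 4.91 and 137 CPM ± 11.4 in males (SD, n = 4). In females Agfg2, 1.05 Mb from Cux1, came next to Plod3 outside the rule (log2FC -0.42, SE 0.12). The nearest called gene of chromosome 5 beyond the 5 Mb was Wfs1, 99.1 Mb away, in the fit of both sexes (log2FC -0.56, SE 0.12).

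The surrounding genes were compared in the same way, and none of the tested genes that flank the 5 was called at E19. Cux1 itself, the nearest tested gene on the other side of Col26a1, had a log2FC of -0.43 (SE 0.10, edgeR adjusted p 0.286) in females and -0.23 (SE 0.12) in males. Ift22, 0.473 kb from 4933404O12Rik and between it and Col26a1, had a log2FC of -0.06 (SE 0.11) in females and -0.14 (SE 0.12) in males, and Fis1, on the other side of 4933404O12Rik, -0.04 (SE 0.10) and -0.11 (SE 0.10). Actl6b, 0.243 kb from Tfr2, had -0.16 (SE 0.12) and -0.12 (SE 0.12), and Mospd3, on its other side, -0.08 (SE 0.11) and -0.06 (SE 0.09). The lncRNA genes Gm8066 and Gm17112 around Gigyf1 lay between -0.28 and 0.61, with SEs of 0.28 to 0.35. Gm10874 and the pseudogene Gm5564, on either side of Zfp157, lay between -0.07 and 0.08. Of the 339 genes within 5 Mb of Cux1 that are not among the 5, 138 were tested in females and 137 in males, and none was called by edgeR. At an unadjusted p under 0.05 there were 13 (9.42%) in females, beside 6.87% of all genes tested, and 17 (12.4%) in males, beside 10.4%. Their median log2FC was -0.05 in females and -0.02 in males, beside 0.01 and -0.01 over all genes. The 5 were taken from the genes of this window that differed in Cux1 KO at E19, so few calls could be left among the others. They are not all of the genes that differed. In the fit of both sexes Plod3 had an edgeR adjusted p of 0.000537, whereas Tfr2 and Gigyf1, which are among the 5, were not called. Nothing is read from the lack of calls among the other genes of the window or in the flanking genes. The choice also lowers the shares at an unadjusted p under 0.05.

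**Figure D2:**
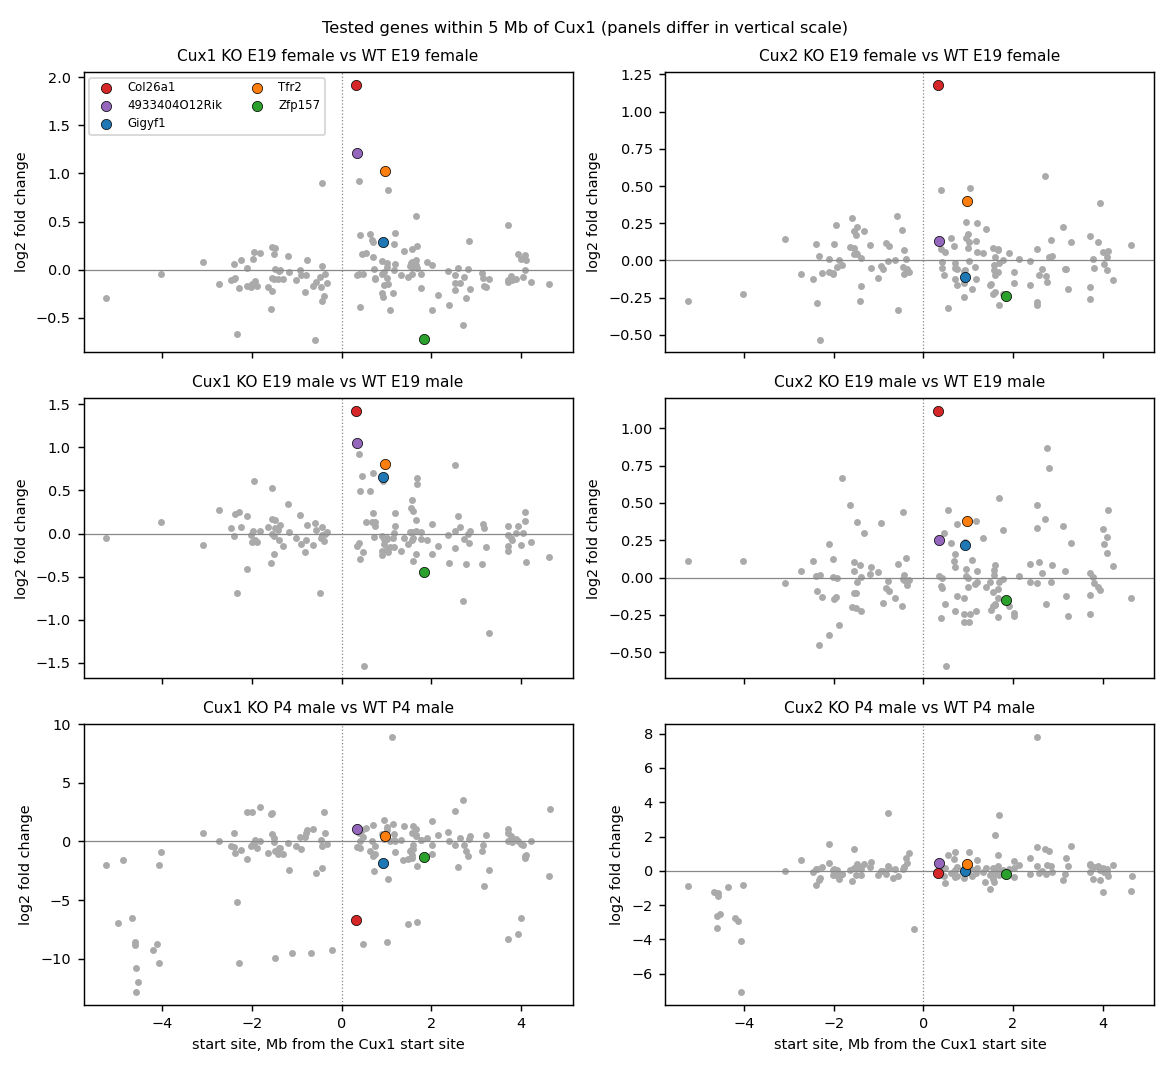
The log2 fold change (vertical axes, which differ between panels) of each tested gene within 5 Mb of Cux1 against the distance of its start site from that of Cux1 in Mb, for 6 comparisons. Coloured points are the 5 genes and grey points the others; in the Cux1 KO E19 panels Col26a1 is the highest point, at 1.92 in females and 1.42 in males, and in the Cux1 KO P4 panel it is at -6.70.

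Whether the same genes differ with the floxed allele was addressed at P4, where a call needed an absolute log2FC over 1. None of the 5 genes was called by edgeR between Cux1 KO and WT males, in a comparison that called 0% of 19601 genes (4021 at an unadjusted p under 0.05, 3251 called by DESeq2). Col26a1 was the only one of the 5 with an unadjusted p under 0.05, and DESeq2 called it alone. The direction of Col26a1 and Gigyf1 was opposite to that at E19, and Zfp157 and 4933404O12Rik had the same sign as at E19. The sign of Tfr2 was not stable, since its log2FC of 0.47 went to -9.48 without Cux1 KO P4 male replicate 2, which leaves a library with no count of it, and to -1.97 with the replicate block. The difference between the stages was not tested, because the E19 values had chosen the genes.

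Col26a1 had 9.41, 4.08 and 11.1 CPM in the WT males at P4 and 0 and 0.139 CPM, from 0 and 6 counts, in the Cux1 KO males. The count of 0 allows a level of up to 0.151 CPM in that library (3 counts; counting error only). The log2FC was -6.70 with a 95% interval of -10.9 to -2.51, with an adjusted p of 0.111 by edgeR and 3.97e-07 by DESeq2. It was -5.87 without Cux1 KO P4 male replicate 1 and -11.6 without replicate 2, where the one library left has no count and the fitted value depends on the prior count. The Cux1 KO libraries also lacked many other genes of this level. Of 4044 tested genes whose mean in WT P4 males was within 2-fold of that of Col26a1, 26.3% were at 3 counts or fewer in the first Cux1 KO library and 15.6% in the second, against 0.445% to 3.04% in the WT and Cux2 KO males; this measure was chosen after the value of Col26a1 was seen. The mean of the 2 Cux1 KO libraries was as low as that of Col26a1 or lower for 388 of these genes (9.59%). The 8 markers of mural cells and fibroblasts, cells that make collagens, summed to 15.2 and 57.6 CPM in the Cux1 KO libraries and to 409, 229 and 275 CPM in the WT males. Of these markers, Col1a1, Col3a1 and Dcn were at 0 in both Cux1 KO libraries and at 0 to 0.0540, 2.27 to 5.27 and 0 to 0.0253 CPM in WT, Col1a2 was at 4.29 to 6.18 CPM against 4.94 to 30.05 CPM, and the pericyte gene Pdgfrb was at 0 to 0.151 CPM against 10.03 to 25.1 CPM. Most of the WT sum came from markers of this list that are not reported here. In Cux2 KO females of P4 the 8 markers summed to 320 to 367 CPM, against 104 to 172 CPM in WT females. Col26a1 had means of 3.61 and 3.97 CPM in these groups. In Cux2 KO and WT males of P4 the sums were 211 to 458 and 229 to 409 CPM, with Col26a1 means of 7.38 and 8.19 CPM. The 6 endothelial markers summed to 0 and 33.2 CPM in the Cux1 KO males against 103 to 208 CPM in the WT males. The part of these markers in the value of Col26a1 was not tested.

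4933404O12Rik was again higher, with 17.2 and 19.4 CPM in the Cux1 KO males against 6.98, 7.17 and 12.6 CPM in the WT males. These groups did not overlap. Its log2FC of 1.02 (95% interval -0.20 to 2.24, edgeR adjusted p 0.308) was close to that of E19 males, but the interval includes 0. Zfp157 had 25.7 and 3.78 CPM against 40.3, 34.2 and 33.9 CPM, below every WT library but with a wide gap between the Cux1 KO libraries (log2FC -1.31, interval -3.44 to 0.82, edgeR adjusted p 0.425). Its log2FC was -3.27 without Cux1 KO P4 male replicate 1 and -0.51 without replicate 2. Gigyf1 had 8.74 and 21.2 CPM against 62.1, 81.1 and 16.9 CPM, so that the third WT male lay between the Cux1 KO libraries (log2FC -1.84, interval -3.95 to 0.27, edgeR adjusted p 0.300). Tfr2 was at 0 and 5.42 CPM against 2.61, 0.962 and 2.27 CPM (log2FC 0.47, interval -4.71 to 5.65, edgeR adjusted p 0.926). Markers of erythroid cells, in whose precursors Tfr2 acts, summed to 0.553 CPM in the first of these Cux1 KO libraries and 413 CPM in the second, against 206 to 490 CPM in WT. Of these markers, Slc4a1 was at 0 in all Cux1 KO and WT males at P4. In the Cux2 KO males of P4 the erythroid markers summed to 671, 409 and 0.717 CPM, and Tfr2 was at 1.33, 2.41 and 3.88 CPM. The part of these markers in the value of Tfr2 was not tested.

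Libraries of 3 of the 5 genes (Col26a1, 4933404O12Rik and Zfp157) did not overlap between Cux1 KO and WT at P4, beside 41.7% of all genes tested. Over all genes the median log2FC was -0.18, and for the 159 tested genes within 5 Mb of Cux1 it was -0.31. Markers of other cells also differed in the Cux1 KO libraries. The 10 upper-layer markers summed to 1433 and 1917 CPM, against 813 to 1041 CPM in WT males, and the 7 oligodendrocyte lineage markers to 1107 and 1239 against 2089 to 2950 CPM. The 5 markers of intermediate progenitors summed to 76.1 and 348 against 501 to 642 CPM and the 7 of microglia to 13.5 and 14.2 against 31.6 to 40.9 CPM. The values at P4 stand beside these markers, the general shift and the lower number of genes detected in both Cux1 KO libraries, whose part in them was not tested. Of these 159 genes, 35 (22.0%) had an unadjusted p under 0.05, beside 20.5% of all genes, and none was called by edgeR (29 by DESeq2). The genes next to the 5 at P4 included Fis1, with a log2FC of 0.69 (SE 0.18), Ift22, with -0.43 (SE 0.30), and Actl6b, with 1.81 (SE 0.47), none of them called.

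Cux2 KO males of P4, which lost the related gene and were sequenced in the same round, gave a further comparison with the Cux1 KO males. edgeR called none of the 5 genes and 2.98% of all genes, but no gene without any one of the 3 Cux2 KO libraries, with the replicate block or without the filter on low counts. DESeq2 called Col26a1 and Gigyf1 of the 5. Col26a1 had 7.69, 11.3 and 3.12 CPM in the Cux2 KO males, all above the Cux1 KO values (log2FC -6.52, 95% interval -10.5 to -2.54, adjusted p 0.0798 by edgeR and 1.34e-06 by DESeq2). Gigyf1 had 62.9, 46.4 and 47.8 CPM (log2FC -1.80, interval -2.97 to -0.64, adjusted p 0.0886 by edgeR and 0.00159 by DESeq2). Zfp157 had 32.2, 32.5 and 32.4 CPM (log2FC -1.13, interval -3.24 to 0.99) and 4933404O12Rik 12.1, 13.9 and 10.9 CPM (log2FC 0.58, interval -0.22 to 1.38). In 4 of the 5 genes, all but Tfr2, the libraries of the groups did not overlap, beside 45.7% of all genes tested. Within 5 Mb of Cux1, edgeR called 6 other genes in this comparison: Gm42992, Styxl1, Stag3, Mlxipl and Gm43481 had no count in either Cux1 KO library and were lower, and the pseudogene Gm7285 was higher, at 46.6 and 45.3 CPM (log2FC 1.30, SE 0.20). Styxl1 and Stag3 were also low in WT males, at 0.0146 to 1.32 and 0 to 0.628 CPM, against 3.63 to 6.41 and 2.32 to 4.01 CPM in Cux2 KO males. Without Cux1 KO P4 male replicate 2, 3 of the 5 genes were called (Col26a1, Gigyf1 and Tfr2) and 3351 of all genes; without replicate 1, 1 was (Zfp157). In these fits the lone Cux1 KO library is assumed to vary like the Cux2 KO libraries, and for Tfr2 and Col26a1 the one left without replicate 2 has no count. The comparison and that with WT share the Cux1 KO libraries, which are also the ones with the fewest genes detected.

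**Figure D3:**
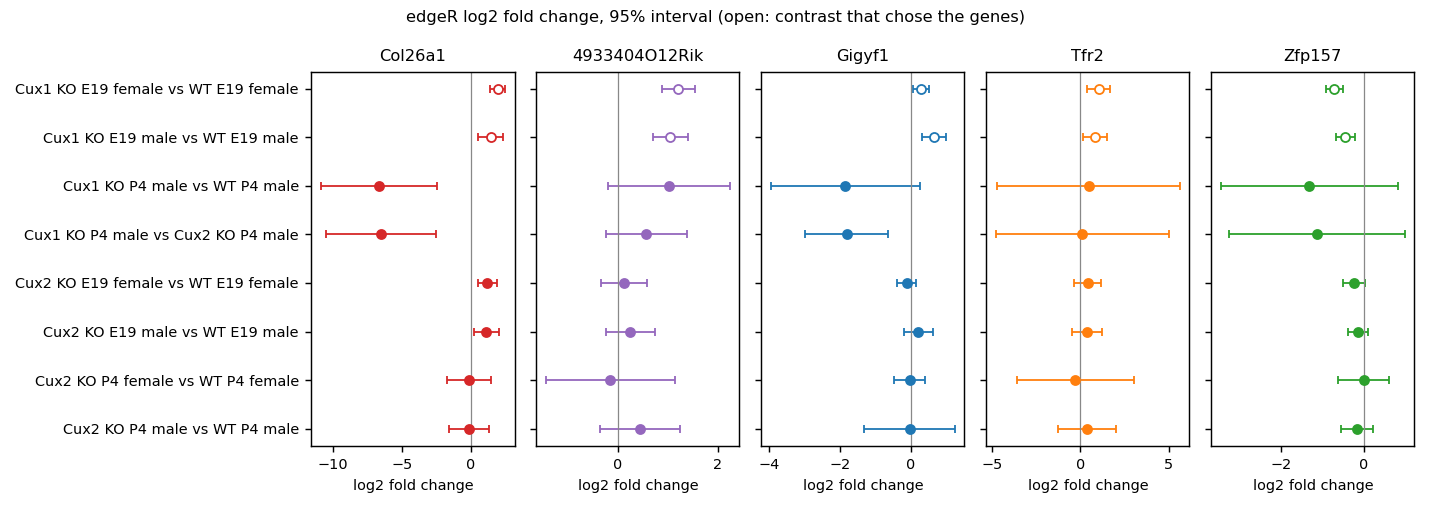
edgeR log2 fold changes (horizontal axes, which differ between panels) of the 5 genes with 95% intervals in 8 comparisons. Open points are the E19 Cux1 KO comparisons, which chose the genes. Col26a1 lies at 1.92 and 1.42 there, at 1.18 and 1.12 in Cux2 KO at E19, and at -6.70 in Cux1 KO at P4.

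The germline Cux2 allele asks whether the genes near Cux1 also differ when the related gene is lost. At E19 Col26a1 was the gene of the 5 that differed most. Cux2 KO females had 3.33, 5.98, 3.79 and 6.33 CPM, all above the WT females given above (1.55 to 2.85 CPM), and Cux2 KO males had 8.86, 4.27, 7.88 and 4.07 CPM, of which 2 lay below the highest WT male. The log2FC was 1.18 (SE 0.32, unadjusted p 0.00249, edgeR adjusted p 0.630) in females and 1.12 (SE 0.43, unadjusted p 0.0213, edgeR adjusted p 0.564) in males. With both sexes in 1 fit it was 1.15 (SE 0.27), with an edgeR adjusted p of 0.137. All 8 Cux2 KO libraries were above the mean of the WT libraries of their sex, but Col26a1 failed the correction in each of these fits. These comparisons use the same WT libraries as those of Cux1 KO, so that their values are not independent of the ones that chose the genes.

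The other 4 genes had smaller values in Cux2 KO at E19. 4933404O12Rik was at 12.7, 12.2, 12.6 and 6.84 CPM in females and 16.1, 16.2, 10.9 and 9.76 CPM in males (log2FC 0.13, 95% interval -0.34 to 0.59, and 0.25, interval -0.23 to 0.74). Zfp157 had a log2FC of -0.24 (interval -0.50 to 0.01) and -0.15 (interval -0.39 to 0.09), Tfr2 0.40 (interval -0.37 to 1.17) and 0.38 (interval -0.49 to 1.24), and Gigyf1 -0.11 (interval -0.38 to 0.16) and 0.22 (interval -0.18 to 0.61), in females and males. edgeR and DESeq2 called none of the 5 in either sex, where edgeR called 0.0287% of all genes in females and 0.121% in males. In the fits of each sex only Col26a1 of the 5 had an unadjusted p under 0.05, and in the fit of both sexes Zfp157 had one too (log2FC -0.20, SE 0.08, unadjusted p 0.0204, edgeR adjusted p 0.465). In females the libraries of 1 of the 5 genes, Col26a1, did not overlap between Cux2 KO and WT, beside 3.07% of all genes, and in males of none, beside 4.46%.

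At P4 no difference of the 5 genes between Cux2 KO and WT passed the test. edgeR called 0% of 19538 genes in females and of 19720 in males (1443 and 1136 at an unadjusted p under 0.05, 183 and 368 called by DESeq2), and none of the 5 had an unadjusted p under 0.05 or was called by DESeq2. Col26a1 had 2.86, 1.10 and 6.86 CPM in Cux2 KO females against 4.28, 4.93 and 2.71 CPM in WT females, and its log2FC was -0.14 (95% interval -1.73 to 1.46) in females and -0.16 (interval -1.59 to 1.28) in males. The log2FC of 4933404O12Rik in males was 0.45 (interval -0.34 to 1.25) and that of Tfr2 in males 0.37 (interval -1.27 to 2.01). The widest interval was that of Tfr2 in females, -3.61 to 3.02, where 1 WT library had no count of it. The narrowest was that of Zfp157 in males, -0.54 to 0.21. Zfp157 in males was also the only gene of the 5 whose libraries did not overlap, at 32.2 to 32.5 CPM in Cux2 KO and 33.9 to 40.3 CPM in WT, beside 12.5% of all genes. In females none of the 5 was separate, beside 15.9%. The effect of Cux2 KO was also compared between the sexes by an interaction term. At E19 the edgeR adjusted p was at least 0.979 for each of the 5 genes, and the difference in log2FC, male minus female, was -0.06 (SE 0.55) for Col26a1; at P4 the adjusted p was at least 0.887.

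Around Cux2 itself, which lies 14.1 Mb from Cux1, the Cux2 KO libraries can be read in the same way. Of the genes within 5 Mb of Cux2, 136 were tested in females and 130 in males at E19, and edgeR called none. At an unadjusted p under 0.05 there were 13 (9.56%) in females and 20 (15.4%) in males, beside 4.62% and 7.94% of all genes. In the same comparisons the genes within 5 Mb of Cux1, with the 5 genes left out in both knockouts, had 2.94% and 7.35%. The corresponding shares for Cux1 KO were 9.42% and 12.4% within 5 Mb of Cux1 and 7.30% and 10.0% within 5 Mb of Cux2, beside 6.87% and 10.4% of all genes. With the 5 genes, which this contrast had chosen, the shares within 5 Mb of Cux1 were 12.6% and 15.5%. No chosen genes were left out around Cux2. The share of Cux1 KO around Cux1 therefore cannot be set against that of Cux2 KO around Cux2. At P4 Cux2 KO gave 7.59% in females and 5.41% in males within 5 Mb of Cux2, beside 7.39% and 5.76% of all genes. These shares are descriptions of neighbouring genes, which share regulation and are not independent, and were not tested.

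The 5 genes were also compared between ages in WT neurons. Between E19 and P4, where a call needed an absolute log2FC over 1, edgeR called 2 of the 5 genes in females (Gigyf1 and Zfp157), beside 44.4% of all genes, and 2 in males (Gigyf1 and Col26a1), beside 41.8%. These calls are no more frequent than the background. Gigyf1 fell from the E19 values above to 55.4, 47.9 and 68.8 CPM in P4 females and 62.1, 81.1 and 16.9 CPM in P4 males (log2FC -1.51, SE 0.17, edgeR adjusted p 9.22e-05, and -1.34, SE 0.49, edgeR adjusted p 0.0470). Zfp157 fell to 27.9, 46.4 and 45.9 CPM in females (log2FC -1.02, SE 0.20, edgeR adjusted p 0.00211). In males it was at 40.3, 34.2 and 33.9 CPM, with an edgeR adjusted p of 0.00102 but a log2FC of -0.97 (SE 0.15), inside the fold threshold. Col26a1 rose in males to 9.41, 4.08 and 11.1 CPM (log2FC 1.56, SE 0.57, edgeR adjusted p 0.0473), which was called. In females it was at 4.28, 4.93 and 2.71 CPM (log2FC 0.91, SE 0.38, edgeR adjusted p 0.0652). Both calls in males were lost without WT E19 male replicate 1, 2 or 4 or WT P4 male replicate 1 or 3, and that of Col26a1 also with DESeq2 size factors, without the filter on low counts and with the replicate block (edgeR adjusted p 0.0526, 0.0633 and 0.0832). The call of Zfp157 was lost in females without WT E19 female replicate 1, 2 or 4 or WT P4 female replicate 1, where its log2FC lay between -0.999 and -0.789. 4933404O12Rik and Tfr2 did not pass (log2FC 0.16 and -0.67 in females and -0.25 and -0.11 in males). The stages differ in sequencing round and in the neuronal and glial markers given above, whose part in these values was not tested. The comparisons of E19 with P4 also use the WT E19 libraries of the contrast that chose the genes. Their values are therefore not independent of that choice.

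From P4 to P7 edgeR called 0% of 19905 genes in females and 0% of 19522 in males (3398 and 2586 at an unadjusted p under 0.05, 1112 and 875 called by DESeq2), and none of the 5 genes. Zfp157 was the only one with an unadjusted p under 0.05 in both sexes, at 17.7 and 21.5 CPM in P7 females and 24.0, 18.7 and 16.8 CPM in P7 males. Its log2FC was -1.03 (SE 0.30, adjusted p 0.194 by edgeR and 0.0378 by DESeq2) in females and -0.86 (SE 0.21, adjusted p 0.151 by edgeR and 0.00243 by DESeq2) in males. Across the WT ages Zfp157 thus had mean levels of 83.1, 40.1 and 19.6 CPM in females and 72.7, 36.1 and 19.8 CPM in males. Gigyf1, by contrast, had means of 57.4 and 51.6 CPM at P4 and P7 in females and of 53.4 and 54.5 CPM in males. Tfr2 was at 0.0660 and 1.10 CPM in the P7 females, the first from a single count.

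**Figure D4:**
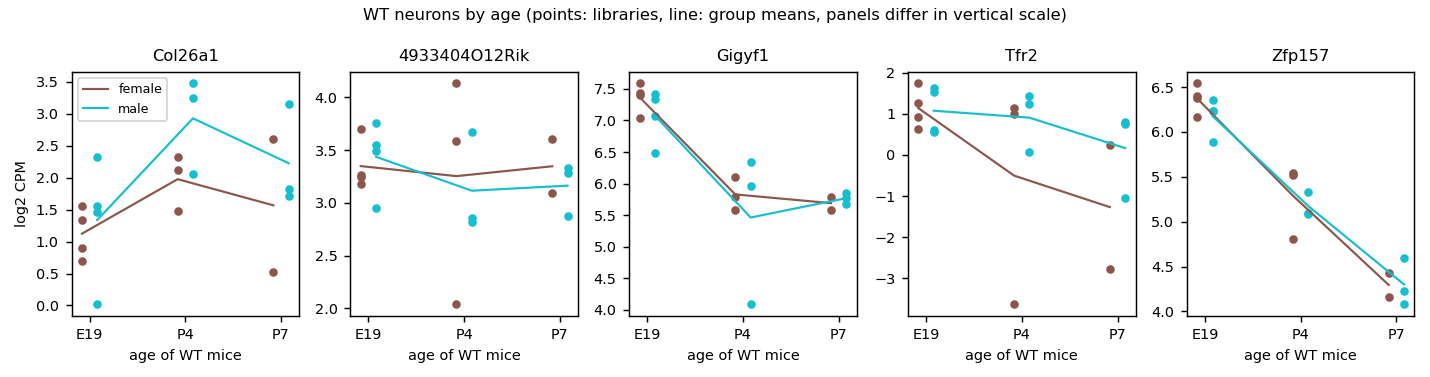
log2 CPM (prior count 2; vertical axes differ between panels) of the 5 genes in WT libraries at E19, P4 and P7. Points are libraries and lines join group means of each sex. Zfp157 is lower at each later age, from a mean of 83.1 to 19.6 CPM in females, and Gigyf1 is lower at P4 than at E19 and level after that.

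The known partners of the 5 genes were followed in lists chosen with earlier results of these data known. Of 15 EMI-domain and collagen-processing relatives of Col26a1, 13 were tested in each E19 Cux1 KO comparison and edgeR called none; 3 in females and 2 in males had an unadjusted p under 0.05, and the median log2FC was 0.14 and -0.06, beside 0.01 and -0.01 over all genes. Plod3, given above, belongs to this list. Of 18 iron uptake and sensing partners of Tfr2, 13 were tested in females and 12 in males and none was called, with 1 and 2 at an unadjusted p under 0.05. All 12 genes of the 4EHP-GIGYF list were tested and none was called, with 1 in each sex at an unadjusted p under 0.05. The same held for the 13 zinc finger and KRAB cofactor genes. No gene of these lists was called by edgeR in Cux1 KO against WT at P4 either, where 2 of 13, 3 of 12, 4 of 12 and 3 of 13 genes, in the order above, had an unadjusted p under 0.05, beside 20.5% of all genes. Between Cux1 KO and Cux2 KO males at P4 edgeR called 1, Slc40a1, the iron exporter ferroportin, which had 0 and 3 counts in the Cux1 KO libraries and was at 19, 42.9 and 23.6 CPM in the Cux2 KO libraries (edgeR adjusted p 0.0491). This call was lost without any one of the Cux2 KO libraries, with the replicate block and without the filter on low counts, where no gene at all was called. No gene of the lists was called in Cux2 KO at either stage.

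With age, the partner lists changed about as often as all genes did. Between E19 and P4 edgeR called 7 of the 12 4EHP-GIGYF genes in WT females and 6 of 12 in WT males, of which 5 in each sex fell, as did Gigyf1 itself. They include Zfp598, a ubiquitin ligase that recognises collided ribosomes (log2FC -4.34, SE 0.46, in females and -3.82, SE 0.23, in males), and Ddx6, an RNA helicase of mRNA decay (-2.16, SE 0.13, and -2.29, SE 0.16). Of the zinc finger and KRAB cofactor genes 5 of 13 fell in each sex and none rose. These include Trim28, the common KRAB cofactor (log2FC -1.76, SE 0.09, in females and -1.90, SE 0.20, in males), and Setdb1, the histone methyltransferase it recruits (-2.04, SE 0.09, and -1.74, SE 0.12). Of the collagen-processing list 8 of 14 were called in each sex, among them Serpinh1, the collagen chaperone (log2FC 1.90 in both sexes, SE 0.22 and 0.13), and Plod3 (-1.80, SE 0.21, and -1.47, SE 0.18). Of the iron list 7 of 13 were called in females (4 rose and 3 fell) and 6 of 12 in males (4 rose and 2 fell). Among them Slc40a1 (log2FC 2.83, SE 0.53, and 4.34, SE 0.57) and Trf, the transferrin gene, rose (1.10, SE 0.27, and 1.65, SE 0.17). Neo1 fell (-2.25, SE 0.29, and -1.58, SE 0.20). The background is 44.4% and 41.8% of all genes, as given above. Of these calls over all genes, 3840 rose and 4316 fell in females, and 3810 rose and 3905 fell in males.

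The genes whose log2 CPM most resembled that of each of the 5, by Pearson's r over the 43 libraries among 16994 genes, were taken from the whole table. For Gigyf1 they were Leng8, Gramd1a and Mrgbp, with r = 0.97, 0.97 and 0.96. For Zfp157 they were Slco5a1, Serpini1 and Nup133, with r = 0.93, 0.93 and 0.92, for Tfr2 Mypop (r = 0.85), for Col26a1 Thsd7b (r = 0.80) and for 4933404O12Rik Zfp940 (r = 0.63). After group means were subtracted, r with the nearest gene was 0.93 for Gigyf1 (Miat), 0.90 for Zfp157 (Gm11266), 0.84 for Tfr2 (B3gnt7), 0.82 for 4933404O12Rik (Mdc1) and 0.69 for Col26a1 (Atp9a). Among the 5 genes themselves the highest r was 0.71, between Zfp157 and Gigyf1, and it was -0.28 within groups. Col26a1 and 4933404O12Rik, which lie 32.7 kb apart, had r = 0.04 over all libraries and -0.05 within groups. These values are descriptions over libraries that share stage, depth and sequencing round.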

How the data were processed

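Gene-level counts were taken as the authors deposited them. Per the labels and the study's methods, 60-nt single-end reads were aligned with HISAT2 to GRCm39, duplicate reads were removed and primary alignments were counted with featureCounts on an Ensembl annotation of that build. Versions of these tools and the strand setting are not given in the sources used here. Raw counts were tested with edgeR 4.0.16 (quasi-likelihood test, TMM normalization, genes with low counts filtered by filterByExpr, Benjamini-Hochberg adjustment over all genes tested) in R 4.3.3, with only the groups compared in each fit. A call needed an adjusted p under 0.05 and an absolute log2FC over 0.5 at E19 or over 1 at P4, at P7 and between stages. Levels are CPM, counts scaled by library size with TMM factors over all 43 libraries, and log2 CPM used a prior count of 2. DESeq2 1.42.0 was an alternative. Gene positions were read from GENCODE M39, where 56236 of the 56980 gene identifiers were found. The edgeR test between 2 groups was run on simulated counts with known changes, for Cux1 KO against WT in E19 females and in P4 males, with an outcome not reported here. The same dispersion was used there for every gene at both stages, and the other tests were not run in this way. The simulation held no loss of genes like that in the Cux1 KO P4 libraries, so it cannot show how the test performs on them. The 5 genes, the rule that named other genes and the gene lists were chosen with earlier results of these data known. The columns of the table were all of known samples, and no library was left out of the tests as given. Intervals are 95% intervals. Values of some marker genes are not reported here.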

Additional observations from a re-analysis of the deposited data

Results flagged for a closer look

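In groups of 4 libraries, 1 library of 4933404O12Rik lay far from the other 3 by Dixon's test in each of the 3 female groups at E19. Cux1 KO had one at 20.3 CPM, with the nearest at 24.2 CPM, Cux2 KO one at 6.84 CPM, with the nearest at 12.2 CPM, and WT one at 12.9 CPM, with the nearest at 9.54 CPM. Of 30 groups of the 5 genes tested in this way, these 3 passed, and chance gives about 1 such group in 20. The lowest Cux1 KO female still lay above the highest WT female.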

How the results depend on the processing

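The direction of the 5 genes in Cux1 KO at E19 held under every alternative run, but these runs used the libraries that chose the genes. Counts of calls moved more. With DESeq2 the genes called numbered 49 and 116 (Cux1 KO E19 females and males), 38 and 93 (Cux2 KO E19), 3251 (Cux1 KO P4), 183 and 368 (Cux2 KO P4), 3377 (Cux1 KO against Cux2 KO) and 1112 and 875 (P7 against P4, females and males). Within 5 Mb of Cux1 it called 4 in Cux1 KO E19 males, 29 in Cux1 KO P4, 1 and 3 in Cux2 KO P4 and 33 between the knockouts, and of the 5 genes 2, 1 and 2 in the Cux1 KO comparisons of males at E19, with WT at P4 and with Cux2 KO, and 1 in females from P4 to P7. Without the filter on low counts, 63 and 91 genes were called in Cux1 KO and 46 and 63 in Cux2 KO at E19, 4 within 5 Mb and 2 of the 5 in Cux1 KO E19 males, 0 between the knockouts, in all and within 5 Mb, and 1 of the 5 in WT males from E19 to P4. With all groups of a stage in 1 fit the counts were 5 (Cux1 KO E19 males), 8 (Cux2 KO E19 females), 2597 (Cux1 KO P4, with 25 within 5 Mb and 2 of the 5), 1 and 4 (Cux2 KO P4), 2021 (between the knockouts, with 17 within 5 Mb and 1 of the 5) and 135 and 94 (P7 against P4). With both sexes in 1 fit, chosen for Cux1 KO after seeing the data, they were 44 (Cux1 KO E19, with 3 within 5 Mb, all of them among the 5), 20 (Cux2 KO E19) and 11 (Cux2 KO P4), and log2FC turned to 0.0523 for Gigyf1 in Cux2 KO E19 females and to 0.15 for 4933404O12Rik and 0.0431 for Tfr2 in Cux2 KO P4 females. DESeq2 size factors gave 3 genes within 5 Mb between the knockouts, a window of 1 Mb gave 1 and one of 10 Mb gave 10. 4933404O12Rik in males from P4 to P7 turned to -0.0014 with these size factors and to -0.0032 with DESeq2.

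Replicate numbers did not pair the samples, since in no comparison did every pair of equal numbers correlate above 0.1. With the replicate number as a block, 46 genes were called in Cux1 KO E19 males, 2 of them within 5 Mb, 10 in Cux2 KO E19 males and 0 between the knockouts, in all and within 5 Mb. Under the block log2FC turned to -1.97 and -2.13 for Tfr2 in Cux1 KO P4 against WT and Cux2 KO, to 0.0402, 0.69 and 0.0154 for 4933404O12Rik, Tfr2 and Zfp157 in Cux2 KO P4 females, to 0.21 for Gigyf1 in Cux2 KO P4 males, and to -0.12 and 0.53 for 4933404O12Rik in WT females from E19 to P4 and from P4 to P7. The cause of these moves was not tested.

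Leaving out 1 library at a time moved the genes called from 2 to 30 and 0 to 16 (Cux1 KO E19 females and males), 3 to 14 and 9 to 19 (Cux2 KO E19), 0 to 639 (Cux1 KO P4, 0 to 9 within 5 Mb), 0 to 1 (Cux2 KO P4 males) and 0 to 3351 (between the knockouts, 0 to 29 within 5 Mb). Of the 5 genes, 0 to 3 and 0 to 1 were called in Cux1 KO E19 females and males, 0 to 3 between the knockouts, and 1 to 3 and 0 to 2 in WT females and males from E19 to P4. The log2FC crossed 0 for Tfr2 in Cux1 KO P4 against WT (-9.48 to 1.47) and Cux2 KO (-9.50 to 1.08), where Cux1 KO replicate 1 has no count. In Cux2 KO P4 females it crossed 0 for all 5 genes (4933404O12Rik -0.55 to 0.32, Col26a1 -1.004 to 0.29, Gigyf1 -0.16 to 0.11, Tfr2 -0.87 to 0.20, Zfp157 -0.21 to 0.12) and in males for Col26a1 (-0.60 to 0.21), Gigyf1 (-0.46 to 0.40) and Tfr2 (-0.0615 to 0.68). In WT it did so for 4933404O12Rik (-0.31 to 0.58) and Tfr2 (-0.37 to 0.22) from E19 to P4 in females and males, and from P4 to P7 for 4933404O12Rik (-0.53 to 0.36 and -0.15 to 0.35), Col26a1 (-1.54 to 0.58, females) and Gigyf1 (-0.39 to 0.48, males).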
